A study of Mus musculus with 12 samples.

Results

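The data are RNA abundances in muscle of diabetic mice, and the question is whether high-intensity interval training (HIIT) and semaglutide, given together, changed each transcript by more or less than the changes of the 2 interventions added up. All 12 libraries of the series enter this contrast, with 3 in each of 4 groups, and 10666 of the 22390 features in the table were tested, those with an FPKM (an abundance scaled for transcript length and library size) of at least 1 in at least 3 libraries. The value given for each gene is the interaction on the log2(FPKM + 1) scale. It is the combination minus HIIT difference less the semaglutide minus control difference, so that 0 means that the drug shifted the transcript equally with and without training. A negative value means that the combination lay below the sum of the 2 single effects.

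All mice were male db/db animals on the C57BL/KsJ background, which carry a defective leptin receptor and develop obesity and diabetes, and all were 8 weeks old at the start. The combination group trained and received semaglutide, the HIIT group trained, the semaglutide group received the drug, and the control group was reared normally, each for 8 weeks. Training consisted of treadmill sessions on 5 days per week, each with 10 running bouts of 4 min at between 85 and 90% of top speed and 2 min of recovery between bouts, and the sample titles state 60 min of exercise. The dose of semaglutide is stated as 30 nmol/kg per day in the protocol and as 0.05 mg/kg in the titles, and these statements were not reconciled. Injections are not mentioned for mice without the drug, and the effects of semaglutide and of its injection cannot be told apart. The labels call the tissue muscle and the protocol names the soleus, a muscle usually rich in slow fibres. The 11 skeletal muscle markers summed to 55630 to 69260 FPKM per library, and Myh4, the myosin heavy chain of the fastest fibres, stood at 4669 to 8898 FPKM against 5.27 to 108 FPKM for Myh7, the slow myosin, so the libraries carry the profile of fast muscle. The labels do not assign an animal to each library, so a p-value here rests on the spread among libraries of a group, which may be partly technical.

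Semaglutide activates the receptor for glucagon-like peptide 1, lowers food intake and raises glucose-dependent insulin secretion. Muscle responds to reduced nutrient supply and to glucocorticoids through FoxO transcription factors, which switch on the ubiquitin ligases Fbxo32 (atrogin-1) and Trim63 (MuRF1), whereas repeated exercise is known for raising mitochondrial, vascular and calcium-handling genes. A factorial design asks whether the response to one stimulus is the same in the presence of the other.

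Some libraries stood apart. Combination 2 and 3 had the lowest median levels over all genes tested, 2.51 and 2.5 log2(FPKM + 1), against 2.7 in combination 1 and 2.63 to 2.85 in the other 9 libraries. Their TMM factors (a scaling estimated from the bulk of genes) were 0.898 and 0.895, against 1.03 in combination 1. Liver transcripts were present at unequal levels, with a sum of 19 hepatocyte markers of 55.8 to 203.8 FPKM in the combination, 102.6 to 703.1 FPKM with HIIT, 26.5 to 183 FPKM with semaglutide and 303.2 to 2121 FPKM in controls. The interaction also shifted with transcript length, from a median of -0.10 in the 4137 genes under 1 kb to 0.01 in the 623 genes over 4 kb. Results that moved with these features are marked where they are given.

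No gene departed from additivity at an adjusted p of 0.05 (limma with Benjamini-Hochberg adjustment over 10666 genes). The percentage called was 0, and the smallest adjusted p was 0.0806. At an unadjusted p of 0.05, 822 genes (7.71%) passed, 282 of them higher than additive (2.64%) and 540 lower (5.06%). Over all genes tested the median interaction was -0.06, with 39.6% of values above 0 and 60.4% below. The count of called genes was 24 without combination 1 (22 lower and 2 higher) and 1 with array weights. The contrast combines 4 group means, so that its median standard error of 0.19 exceeded the 0.14 of a comparison of 2 groups. The 95% interval of the interaction lay within 1 log2 unit either side of 0 in 8974 genes (84.1%), and within 0.5 in 3295 genes (30.9%).

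The feature with the smallest p was MSTRG.18204.16, an assembled transcript without a gene name, which lies outside the rule for named genes and was singled out after its values were seen. Its FPKM was 1.37, 1.04 and 0.777 in the combination, 2.1, 2.38 and 1.94 with HIIT, 3.45, 3.76 and 3.94 with semaglutide and 1.86, 1.1 and 1.65 in controls. The combination lay below HIIT while semaglutide alone lay above control, with no overlap in either pair, and the interaction was -1.52 ± 0.20 (SE, n = 3 libraries per group; adjusted p = 0.0806). It was also the 1 feature called between the combination and semaglutide (log2 difference -1.20 ± 0.14, adjusted p = 0.0267, limma; background 0.00938%), a call that was 0 features in 18 of 25 alternatives, the replicate block and a pseudocount of 0.1 among them.

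The drug's effect was first set side by side in trained and untrained mice, 2 differences that share no library. Semaglutide added to HIIT changed 321 genes (3.01% of genes tested; 112 higher, 1.05%, and 209 lower, 1.96%) and semaglutide alone changed 397 (3.72%; 121 higher, 1.13%, and 276 lower, 2.59%). Of the 121 genes higher with semaglutide alone, 114 (94.2%) lay above HIIT in the combination, where 32.4% of all genes did, and 49 (40.5%) were called there too. Their median log2 difference was 0.52 in trained and 0.72 in untrained mice. Of the 276 genes lower with semaglutide alone, 272 (98.6%) lay below HIIT in the combination, against 67.6% of all genes, and 36 (13%) were called. Their median was -0.61 in trained and -1.38 in untrained mice, and 17 of the 19 hepatocyte markers are among these 276 genes. Starting from the trained mice, 108 of the 112 higher genes (96.4%) and 199 of the 209 lower genes (95.2%) had the same sign with semaglutide alone, against 41.5% of all genes above 0 and 58.5% below 0 there. Their medians were 0.65 in trained and 0.47 in untrained mice for the higher genes, and -0.67 in trained and -0.33 in untrained mice for the lower genes. In either choice of genes the comparison that chose them has the larger median, so the sizes show no order between trained and untrained mice. Across all 10666 genes the 2 differences had Pearson's r = 0.624 and Spearman's rho = 0.565, a description over genes that are not independent. The split of the trained comparison depended on the scaling, with 471 higher and 222 lower after TMM rescaling. With a score of liver transcripts as covariate the counts were 31 in trained and 1 in untrained mice. Leaving out any one of the combination libraries, HIIT 1 or 3, semaglutide 2 or 3 or control 1 moved the trained count by over 1.5 times (range 18 to 1574), and leaving out any one of combination 2 or 3, the semaglutide libraries, or control 1 or 2 lowered the untrained count by as much (33 to 127).

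**Figure D1:**
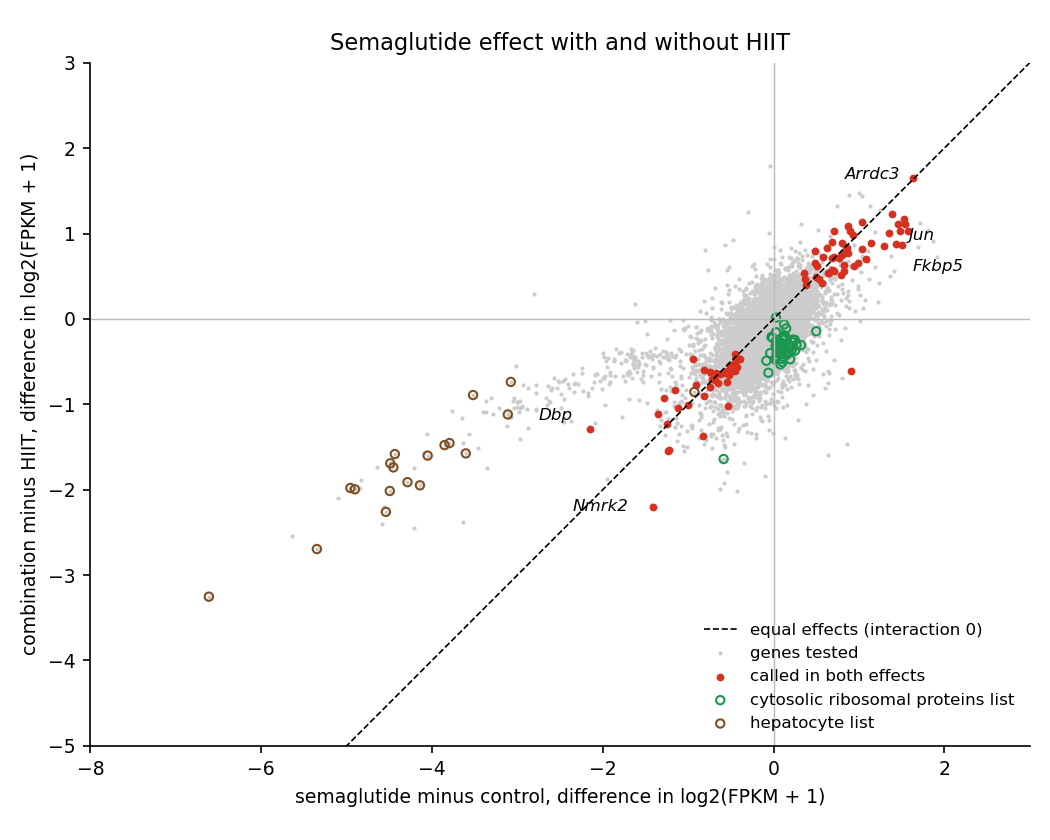
Log2(FPKM + 1) difference of combination minus HIIT (vertical) against semaglutide minus control (horizontal) for the 10666 genes tested, with the dashed line of equal effects; the interaction is the vertical distance from that line. Most of the 86 features called in both effects lie near the line, while ribosomal protein genes lie below it and hepatocyte markers above it.

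Next come the 85 genes called in the same direction in both settings, a choice that favours equal differences, so their values are a description and no evidence of additivity. Of the 49 higher genes the median log2 difference was 0.77 in trained and 0.83 in untrained mice, and 3 had an interaction at an unadjusted p of 0.05. Of the 36 lower genes it was -0.71 and -0.70, again with 3 at that level. Over all genes 7.71% passed it. Trim63 stood at 429, 297 and 288 FPKM in the combination, 147, 157 and 147 FPKM with HIIT, 562, 399 and 337 FPKM with semaglutide and 155, 254 and 220 FPKM in controls. Every library with the drug was above every library without it. It rose by 1.14 ± 0.22 with training and by 1.04 ± 0.22 without (adjusted p = 0.0284 and 0.0319, limma), and its interaction was 0.10 with a 95% interval of -0.59 to 0.79. Fbxo32 rose by 1.23 ± 0.20 and 1.38 ± 0.20 (adjusted p = 0.0183 and 0.0113, limma), with an interaction of -0.16 (-0.79 to 0.48). Arrdc3, an alpha-arrestin, rose by 1.66 and 1.63, Foxo3 by 0.54 and 0.64, and Ulk1, the kinase that starts autophagy, by 0.90 and 0.69. Among genes that fell, Nr1d1, a repressor of the circadian clock, had differences of -1.0 in both settings, Calm2, a calmodulin gene, -0.79 and -0.75, and Igfbp5, which binds insulin-like growth factors, -1.23 and -1.25.

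Of the 25 tested FoxO targets and atrophy ligases, 6 rose with semaglutide added to HIIT and 8 with semaglutide alone, and none fell, where over all genes 1.05% rose and 1.96% fell with training and 1.13% rose and 2.59% fell without. The median difference was 0.31 in trained and 0.30 in untrained mice, and the median interaction was 0.02, with 13 genes above and 12 below 0. Foxo1 itself was less even, with 13.5, 5.05 and 7.52 FPKM in the combination, 6.08, 4.75 and 4.77 FPKM with HIIT, 13.3, 12.3 and 7.96 FPKM with semaglutide and 2.31, 4.83 and 3.73 FPKM in controls. Semaglutide alone lay clear of control, while combination 2 overlapped HIIT, and the interaction was -0.85 ± 0.44 (adjusted p = 0.646, limma). Without combination 2 and 3 it was -0.18.

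Of the 28 tested genes on the glucocorticoid response list, 6 rose with the drug in trained mice and none fell, and 8 rose and 1 fell in untrained mice, beside the same shares over all genes (1.05% and 1.96% with training, 1.13% and 2.59% without). The median interaction was 0.04, and 4 members lay lower and 2 higher than additive at an unadjusted p of 0.05, that is 14.3% and 7.14% of the list, against 5.06% and 2.64% of all genes. Without combination 2 and 3 the median was 0.47, with 20 of 28 above 0. The 4 lower members were Fkbp5, Cdkn1a, Mt2 and Tsc22d3. Fkbp5, a chaperone of the glucocorticoid receptor that glucocorticoids induce, had 96.7, 97.6 and 92.5 FPKM in the combination, 47.4, 66.0 and 45.0 FPKM with HIIT, 100.4, 109 and 82.4 FPKM with semaglutide and 26, 46.9 and 30.5 FPKM in controls. The libraries of both drug groups lay above all others, and HIIT overlapped control. Its interaction was -0.64 ± 0.29 (unadjusted p = 0.0462, adjusted p = 0.632, limma), and additive effects would have put the combination at 149 FPKM, against an observed geometric mean of 95.6 FPKM.

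Cdkn1a, the cell cycle inhibitor p21, had 82.3, 81.7 and 78.8 FPKM in the combination, 29.1, 65.6 and 47.2 FPKM with HIIT, 96.7, 88.5 and 85.2 FPKM with semaglutide and 25.3, 36.5 and 21.8 FPKM in controls. The combination lay just below semaglutide alone, without overlap, and the interaction was -0.85 ± 0.35 (unadjusted p = 0.0339, adjusted p = 0.632, limma). Mt2, a metallothionein, had an interaction of -1.19 ± 0.47, and Tsc22d3, which encodes the glucocorticoid-induced leucine zipper protein, one of -0.42 ± 0.17, both with an adjusted p of 0.632. Mt2 without combination 2 and 3 had -0.62. Jun, a subunit of the AP-1 factor and no member of that list, had 33.2, 40.7 and 34.9 FPKM in the combination, 16.4, 22.5 and 19.2 FPKM with HIIT, 50.9, 35.3 and 44.8 FPKM with semaglutide and 15, 15.5 and 15.4 FPKM in controls. It rose by 0.88 ± 0.14 with training and by 1.44 ± 0.14 without (adjusted p = 0.0172 and 0.00151, limma), and its interaction was -0.56 ± 0.20 (unadjusted p = 0.0162, adjusted p = 0.632).

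The 2 members that lay higher than additive were Nfkbia, an inhibitor of NF-kappaB, with 0.86 ± 0.26, and Ddit4, an inhibitor of mTORC1 signalling, with 1.83 ± 0.71. Ddit4 had 81.4, 36.1 and 26.5 FPKM in the combination, 23.4, 6.90 and 9.57 FPKM with HIIT, 49.7, 51.5 and 48.5 FPKM with semaglutide and 29.1, 57.1 and 81.1 FPKM in controls. HIIT alone lay below the other 3 groups, with no overlap, and both genes had an adjusted p of 0.632 (limma).

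**Figure D2:**
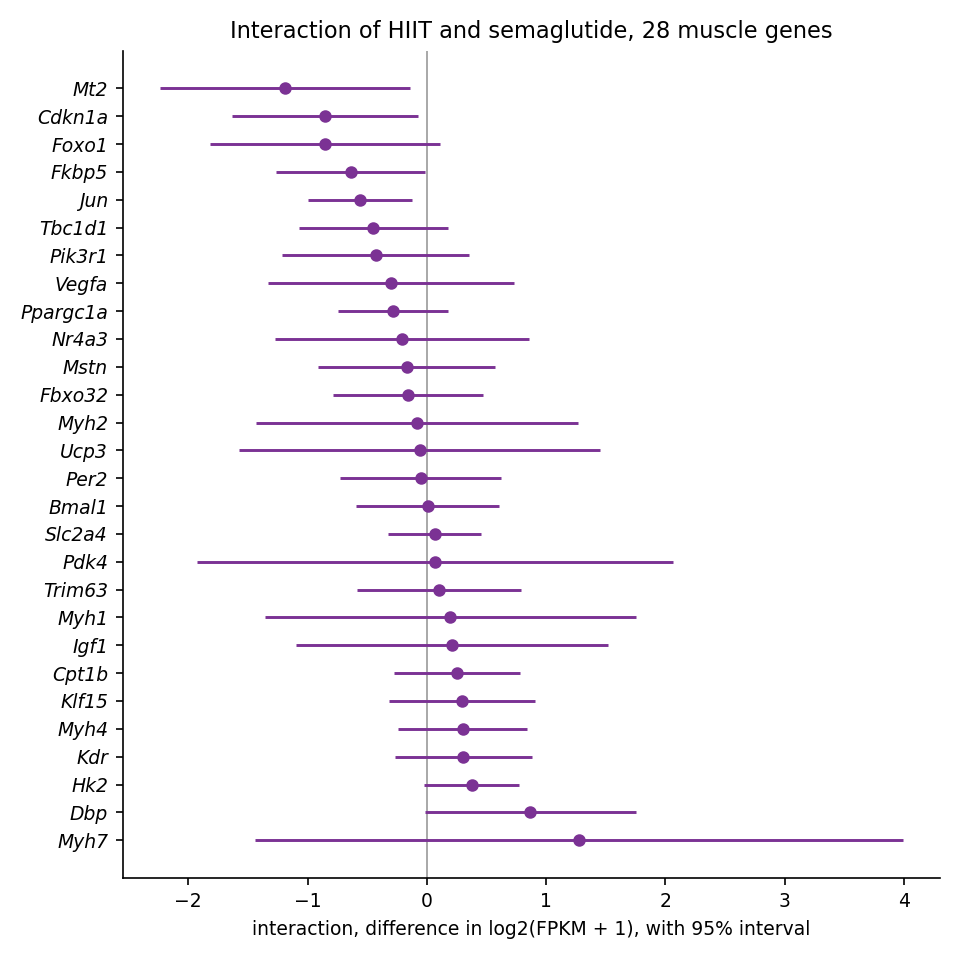
Interaction of HIIT and semaglutide (points, log2(FPKM + 1)) with limma's 95% interval (lines) for 28 genes of muscle signalling, metabolism, clock and fibre type, ordered by value. The intervals of Mt2, Cdkn1a, Fkbp5 and Jun lie below 0, no interval lies above it, and none of the 28 passed after adjustment over all genes.

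Among the 28 genes of muscle signalling and metabolism chosen for the comparison, the glucose transporter Slc2a4 was close to additive, with an interaction of 0.07 and an interval of -0.33 to 0.46. Tbc1d1, a regulator of glucose transporter traffic, and Pik3r1, the regulatory subunit of PI3-kinase, had -0.45 (-1.07 to 0.18) and -0.43 (-1.21 to 0.35). Tbc1d1 rose with the drug by 1.03 with training and 1.48 without, and Pik3r1 by 1.12 and 1.54. Ppargc1a, a coactivator of mitochondrial biogenesis, had -0.28 (-0.74 to 0.18). Dbp, an output gene of the circadian clock, had 10.7, 7.89 and 11.6 FPKM in the combination, 25.6, 34.1 and 19.3 FPKM with HIIT, 2.24, 6.35 and 4.73 FPKM with semaglutide and 20.5, 20.2 and 25.5 FPKM in controls. It fell by 1.28 ± 0.28 with training and by 2.15 ± 0.28 without (adjusted p = 0.042 and 0.00823, limma), the combination lay above semaglutide alone in every library, and the interaction was 0.87 (-0.02 to 1.76). The core clock gene Bmal1 had an interaction of 0.01 (-0.59 to 0.61). The time of day of tissue collection was not examined here.

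The training effect was set side by side in the same way, as the combination minus semaglutide and HIIT minus control differences. HIIT alone changed 0 genes at the adjusted threshold (952 at an unadjusted p of 0.05, 8.93%, limma) and HIIT added to semaglutide changed 1, the assembled feature named above. The first count was 1 without HIIT 1, HIIT 2 or control 3, and the second was 557 without combination 1 and 0 without any one of combination 2 or 3, the HIIT and semaglutide libraries or control 3. Across genes the 2 differences had r = 0.141 and rho = 0.143, and 55.9% of genes had the same sign.

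The genes nearest to the threshold are described next. They were taken by the smallest unadjusted p, 10 in each direction, none passed (adjusted p = 0.534 for Clec2d and 0.632 for the other 19, limma), and their p-values are given as a description. Each of the 20 kept its sign in every alternative setting in which it was tested, 24 or 25 per gene. The alternatives refit the same libraries, and a choice by small p favours a stable sign, so this gives no separate support. The 10 lower ones are Clec2d, Bcl2l12, Rrp15, Zfp866, H2az1, Gemin2, Ddx47, Rps27l, Rpusd4 and Ttc4, with interactions of -0.98 to -0.46. As background on single genes, Rrp15 and Ddx47 take part in ribosomal RNA processing, Rpusd4 modifies mitochondrial RNA, and Gemin2 belongs to the SMN complex that assembles spliceosomal particles.

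Clec2d, a C-type lectin that serves as ligand for a receptor of natural killer cells, had 14.5, 17.3 and 16.6 FPKM in the combination, 24.3, 19.1 and 20.2 FPKM with HIIT, 29.2, 25.4 and 23.7 FPKM with semaglutide and 17.2, 18.3 and 14.7 FPKM in controls. Each single intervention lay above control and the combination lay below each single intervention, all without overlap. The interaction was -0.98 ± 0.17 (unadjusted p = 1.0e-04, limma), so that the combination stood at 0.506 times its additive expectation on the FPKM + 1 scale. H2az1, a histone H2A variant, had 40.7, 36.6 and 34.5 FPKM in the combination, 55.2, 59.1 and 63.2 FPKM with HIIT, 42.4, 41.7 and 43.8 FPKM with semaglutide and 41.5, 45.3 and 42.2 FPKM in controls. HIIT alone lay above every other library and the combination below every other library, and the interaction was -0.64 ± 0.12. Bcl2l12, a regulator of apoptosis, had 2.71, 1.63 and 1.92 FPKM in the combination, 4.82, 4.11 and 3.71 FPKM with HIIT, 3.61, 3.54 and 3.41 FPKM with semaglutide and 3.17, 3.19 and 3.18 FPKM in controls, with an interaction of -0.88 ± 0.18. Here too the combination was the lowest group and HIIT the highest.

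The 10 higher ones are Bltp1, 3425401B19Rik, Ahdc1, Alpk3, Mecom, Dusp8, Samd4, Etl4, Scn4a and Rasgrp3, with interactions of 0.50 to 0.81. Several of them follow one of 2 patterns. In the first, each intervention alone lay below control and the combination lay at a similar level. Bltp1, a lipid transfer protein, had 3.97, 3.41 and 2.51 FPKM in the combination, 2.68, 2.49 and 2.99 FPKM with HIIT, 3.88, 3.34 and 3.19 FPKM with semaglutide and 6.28, 5.58 and 5.66 FPKM in controls. All 9 libraries with an intervention were below the 3 controls. Additive effects would have put the combination at 1.42 FPKM, against an observed geometric mean of 3.26 FPKM, and the interaction was 0.81 ± 0.18. Ahdc1 (0.71 ± 0.18), Mecom (0.64 ± 0.16) and Rasgrp3 (0.50 ± 0.12), a guanine nucleotide exchange factor for Ras proteins, also had every HIIT and semaglutide library below every control.

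In the second pattern HIIT alone was the low group. 3425401B19Rik had 58.6, 78.7 and 63.0 FPKM in the combination, 31.4, 33.1 and 26.2 FPKM with HIIT, 57.9, 60.7 and 60.2 FPKM with semaglutide and 51.7, 43.7 and 46.9 FPKM in controls. It rose by 1.11 ± 0.12 when semaglutide was added to HIIT (adjusted p = 0.00398, limma) and differed by 0.33 ± 0.12 without training (adjusted p = 0.164), and the interaction was 0.79 ± 0.17. Samd4, a binding protein that represses translation, rose by 0.83 ± 0.10 with training (adjusted p = 0.00526) and differed by 0.21 ± 0.10 without. Alpk3, a sarcomere-associated pseudokinase, rose by 0.61 ± 0.12 with training (adjusted p = 0.0283) and differed by -0.04 ± 0.12 without. A call in one setting and not in the other does not show a difference, and the interaction that tests it did not pass for any of these genes.

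**Figure D3:**
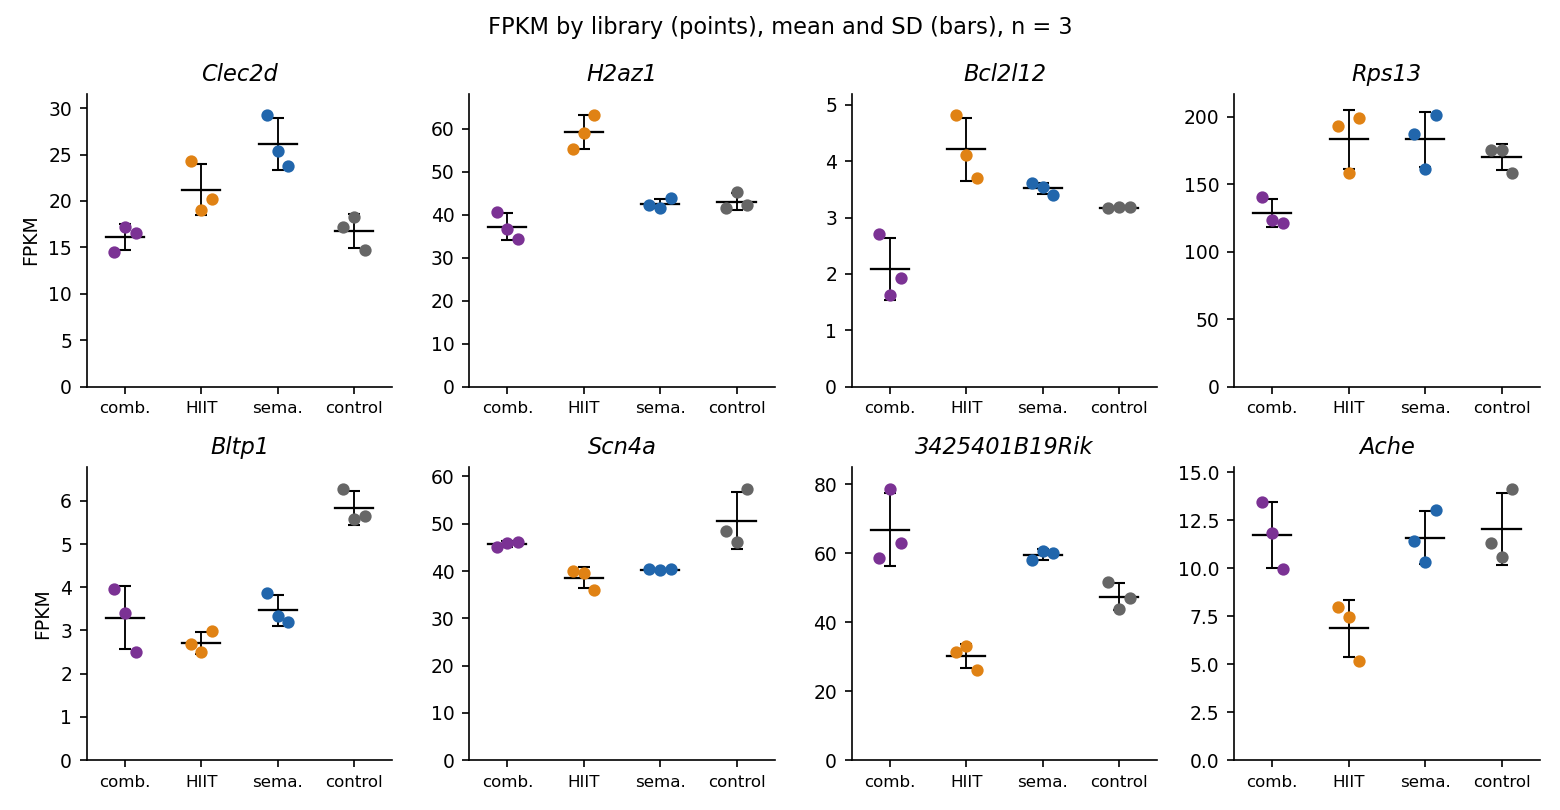
FPKM in each library (points), with group mean and SD (bars, n = 3), for 4 genes below (upper row) and 4 above additivity (lower row), in the order combination, HIIT, semaglutide and control. In H2az1, HIIT alone stands at 55.2 to 63.2 FPKM above the other groups, and in Bltp1 the controls stand at 5.58 to 6.28 FPKM above them.

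Crossed patterns, in which the drug moved a gene one way with training and the other way without, were few. In 13 genes (0.122% of those tested) the combination lay above HIIT and semaglutide below control with no overlap in either pair, and in 45 features (0.422%) the reverse held. The same direction without overlap was seen in 370 genes upward (3.47%) and in 689 downward (6.46%). Among the 13 were Scn4a, Kcna7, Dusp8, Hibadh and Dnajb5, and among the 45 were Clec2d, Bcl2l12, Ddx47, Rpusd4, Ttc4 and Zfp866, together with the ribosomal protein gene Rps14, the mitochondrial ribosome genes Mrps17 and Mrpl21 and the respiratory gene Ndufb4. These lists were drawn from the values and carry no test of their own.

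Gene lists were described by their counts and medians beside those of all genes tested, where the median was -0.06 and 39.6% lay above 0. The list that lay farthest below was the cytosolic ribosomal proteins, apart from 5 erythroid markers with a median of -0.54. All 58 tested members had an interaction below 0, with a median of -0.43 and a range of -1.06 to -0.01, and 32 (55.2%) passed an unadjusted p of 0.05 where 5.06% of all genes did in that direction. None passed after adjustment. Their median difference was -0.32 with the drug in trained mice and 0.09 in untrained mice. The median level of the list was 7.26, 6.86 and 6.85 log2(FPKM + 1) in the combination, 7.45, 7.19 and 7.52 with HIIT, 7.29, 7.26 and 7.44 with semaglutide and 7.15, 7.28 and 7.27 in controls. Combination 2 and 3 were the lowest 2 of the 12 libraries, and combination 1 lay among the other groups. Those are also the 2 libraries with the lowest overall level. Without them, with combination 1 alone in its group, the list's median was -0.21, with 50 of 58 members below 0. After TMM rescaling the median was -0.36, with 57 of 58 below 0. The median interaction of all genes under 1 kb was -0.10, and this list's value with the length trend removed is not given here. Ribosomal proteins have many pseudogenes, and their values are uncertain to that extent.

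Rps13 had 141, 124 and 122 FPKM in the combination, 193, 159 and 199 FPKM with HIIT, 188, 161 and 201 FPKM with semaglutide and 176, 176 and 159 FPKM in controls. The combination lay below every other library, and the interaction was -0.61 ± 0.16 (unadjusted p = 0.00282, adjusted p = 0.632, limma). Rps14 had -0.62 ± 0.15 and Rpl30 -0.53 ± 0.15, with the same adjusted p. In vertebrates the messengers of ribosomal proteins begin with a run of pyrimidines (the TOP motif), through which mTORC1 signalling controls their translation. Any part of this motif in the RNA values was not tested. The start regions of 4 members of the list are shown. They have the smallest p among those whose window holds CTTTC on the gene's strand, with a part of the genome left out beforehand. Each region has 15 bases before and 15 from the annotated start, 5′ to 3′, from RefSeq sequence of GRCm38.p6. The first CTTTC in each is in capitals. Rpl18 is shown from the plus strand at chr7:45718056-45718085, Rpl28 from the plus strand at chr7:4792950-4792979, Rpl35 from the minus strand at chr2:39005117-39005146 and Rpl13 from the plus strand at chr8:123102335-123102364.
Rpl18: tgcgtctcgcaggccgctCTTTCcccgccc
Rpl28: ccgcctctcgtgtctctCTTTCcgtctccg
Rpl35: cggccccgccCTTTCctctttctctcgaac
Rpl13: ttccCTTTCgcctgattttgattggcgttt
In Rpl18 and Rpl28 the capitals lie within the annotated messenger, and in Rpl35 and Rpl13 they lie wholly upstream of its annotated start. The Rpl35 window holds a further CTTTC, left in small letters, which lies within the annotated messenger.
A promoter was found for 45 of the 58 genes. CTTTC was present on either strand within the 30 bases in 12 of the 45 (26.7%), against 8.83% of 27025 gene symbols with such a window and 7.53% of the tested symbols. TTTCC was present in 15 (33.3%, against 10.19%) and CTTTCC in 7 (15.6%, against 3.14%), and these motifs overlap one another. A match describes the letters in the window, and annotated starts need not coincide with the transcribed ones.

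The respiratory chain lay below additivity as well. Of 42 nuclear genes for complexes II to V, 33 had an interaction below 0 and 9 (21.4%) passed an unadjusted p of 0.05, with a median of -0.27. Of 37 nuclear genes for complex I, 30 lay below 0 and 9 (24.3%) passed, with a median of -0.18, where 5.06% of all genes passed in that direction. HIIT 3 was the highest of the 12 libraries for both lists, at median levels of 7.35 log2(FPKM + 1) for complex I and 8.45 for complexes II to V where the next highest libraries had 7.15 and 8.26, and mitochondrially encoded transcripts made up 42% of its FPKM against 31.3 to 38.1% in the other 11. Without HIIT 3 the medians were -0.18 for complexes II to V, with 1 gene at that level, and -0.12 for complex I, with 4. Their median differences with the drug were -0.21 and -0.17 in trained mice and 0.06 and 0.05 in untrained mice. Cox8b, a muscle subunit of cytochrome c oxidase, had 181, 156 and 172 FPKM in the combination, 178, 192 and 214 FPKM with HIIT, 169, 200 and 200 FPKM with semaglutide and 175, 152 and 140 FPKM in controls. Its groups overlap in both drug pairs, and the interaction was -0.48 ± 0.16 (adjusted p = 0.632, limma). Ndufa2, a complex I subunit, had -0.46 ± 0.15. The counts depended on the scaling, since after TMM rescaling 1 gene in each list passed an unadjusted p of 0.05, and with the trend of transcript length removed 0 and 1 passed. Without combination 2 and 3 the medians of these lists were -0.24 and -0.19. The 13 mitochondrially encoded transcripts had a median of -0.17 with none at that level, and of -0.08 without HIIT 3. Of 32 proteasome genes, 2 (6.25%) lay lower at an unadjusted p of 0.05, a share near the 5.06% of all genes, with a median of -0.11.

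**Figure D4:**
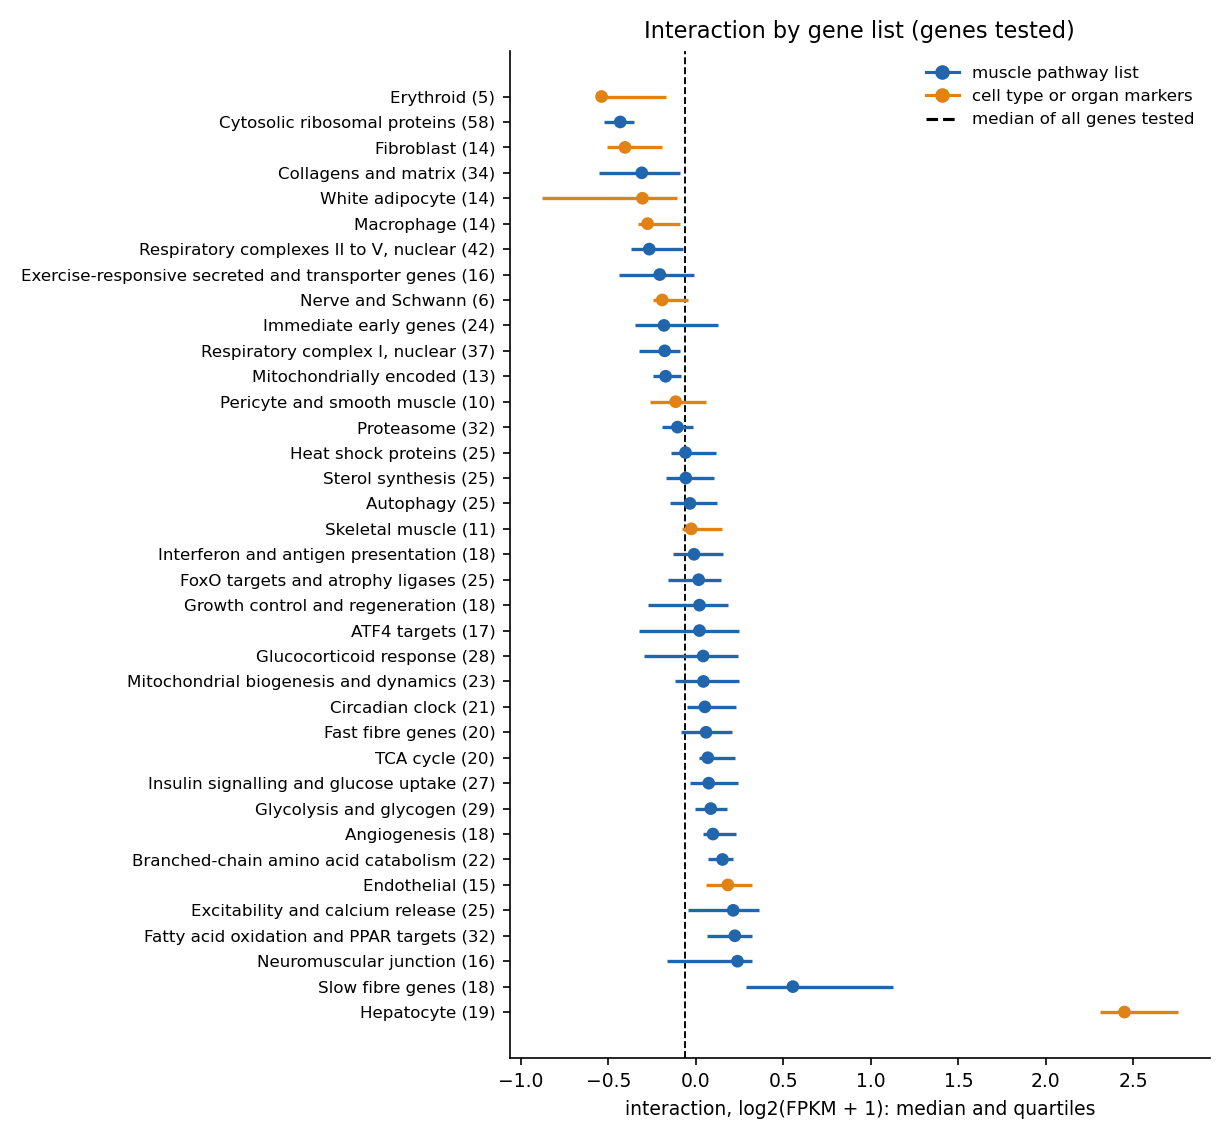
Interaction on the log2(FPKM + 1) scale for each gene list with at least 5 genes tested (number in brackets), as median (point) and quartiles (line), for muscle pathways and for markers of other cell types; the dashed line is the median of all genes tested. Ribosomal proteins lie at -0.43 and hepatocyte markers at 2.45.

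Genes of the electrically active membrane lay on the other side. Of 25 genes for excitability and calcium release, 18 were above 0, with a median of 0.21, and 4 (16%) passed an unadjusted p of 0.05 in that direction, where 2.64% of all genes did. Without combination 2 and 3 the median was 0.11, with 17 above 0. Scn4a, the voltage-gated sodium channel of skeletal muscle, had 45.1, 45.9 and 46.2 FPKM in the combination, 40.1, 39.6 and 36.0 FPKM with HIIT, 40.4, 40.1 and 40.5 FPKM with semaglutide and 48.5, 46.1 and 57.4 FPKM in controls. Each single intervention lay below control and the combination above both, without overlap, and the interaction was 0.56 ± 0.12 (unadjusted p = 7.72e-04, adjusted p = 0.632, limma). Kcna7, a voltage-gated potassium channel, had 0.69 ± 0.20, and Jph1, which holds the triad membranes together, 0.50 ± 0.20.

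Of 16 neuromuscular junction genes, 11 lay above 0, with a median of 0.24, and without combination 2 and 3 the median was 0.48, with 12 above 0. Ache, the acetylcholinesterase of the synapse, had 13.4, 11.8 and 9.96 FPKM in the combination, 7.97, 7.47 and 5.18 FPKM with HIIT, 11.4, 10.3 and 13.0 FPKM with semaglutide and 11.3, 10.6 and 14.1 FPKM in controls. HIIT alone lay below every other library. Ache rose by 0.70 ± 0.16 with the drug in trained mice (adjusted p = 0.0432, limma) and differed by -0.04 ± 0.16 without training, and the interaction was 0.75 ± 0.23 (unadjusted p = 0.00722, adjusted p = 0.632). Musk, the receptor kinase of the junction, went the other way with -0.70 ± 0.32.

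Metabolic lists were mostly a little above 0, apart from sterol synthesis with a median of -0.06 (10 of 25 above 0), near the median of all genes. Of 22 genes for the breakdown of branched-chain amino acids, 20 lay above 0, with a median of 0.15, and Hibadh (0.38 ± 0.10) and Bckdha (0.28 ± 0.13) passed an unadjusted p of 0.05. These 2 are 9.09% of the list, where 2.64% of all genes passed in that direction. Without the 3 libraries richest in liver transcripts, the median was 0.01 with 12 of 22 above 0. Fatty acid oxidation and PPAR targets had a median of 0.22 (25 of 32 above 0), the tricarboxylic acid cycle 0.07 (17 of 20), insulin signalling and glucose uptake 0.07 (20 of 27) and glycolysis and glycogen 0.09 (20 of 29), with no member of these 4 lists at an unadjusted p of 0.05. Of the other pathway lists, the medians were -0.03 for autophagy (2 of 25 genes higher and 1 lower at an unadjusted p of 0.05), 0.02 for ATF4 targets (1 of 17 higher), -0.18 for immediate early genes (1 of 24 lower), 0.05 for the circadian clock (1 of 21 higher), 0.04 for mitochondrial biogenesis (2 of 23 higher), 0.1 for angiogenesis (0 of 18) and -0.21 for exercise-responsive secreted and transporter genes (0 of 16). They were -0.06 for heat shock proteins (1 of 25 higher and 1 lower), -0.01 for interferon and antigen presentation (0 of 18) and 0.02 for growth control and regeneration (1 of 18 lower). Over all genes 2.64% lay higher and 5.06% lower at that level.

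The 18 slow fibre genes had a median interaction of 0.55 with 15 above 0, and none passed an unadjusted p of 0.05. Myh7 had 12.3, 5.27 and 57.2 FPKM in the combination, 36.2, 11.6 and 22.0 FPKM with HIIT, 19.5, 9.54 and 73.1 FPKM with semaglutide and 93.2, 108 and 48.2 FPKM in controls. The combination ranged from the lowest of the 12 libraries to above every HIIT library, and the interaction was 1.28 with an interval of -1.44 to 3.99. Leaving out HIIT 2 brought the list's median to 0.21. In bulk tissue, fewer fibres of a type in the piece taken and less RNA per fibre cannot be told apart. The 20 fast fibre genes had a median of 0.06, and Myh4 had 0.30 (-0.24 to 0.84).

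Collagens and matrix genes lay below 0 in 28 of 34 cases, with a median of -0.31 and 3 members (8.82%) at an unadjusted p of 0.05, where 5.06% of all genes were. Serpinh1, the collagen chaperone, had 10.9, 6.72 and 7.46 FPKM in the combination, 20.5, 24.6 and 23.0 FPKM with HIIT, 6.45, 5.59 and 9.13 FPKM with semaglutide and 10.8, 14 and 7.77 FPKM in controls. HIIT alone was the highest group. Serpinh1 fell by 1.37 with the drug in trained mice (adjusted p = 0.018, limma) and differed by -0.55 in untrained mice, with an interaction of -0.82 ± 0.31. Col6a3, a chain of type VI collagen, fell in both settings, by 1.37 and by 0.83, and had an interaction of -0.54 ± 0.24. Fibroblast markers moved with these genes, with a median of -0.41 over 14 tested markers, 12 of them below 0. The summed level of 15 fibroblast markers was 468.5 to 710.9 FPKM in the combination, 627.1 to 1383 FPKM with HIIT, 508.6 to 517.9 FPKM with semaglutide and 500.9 to 845 FPKM in controls, and their part in the result was not tested. Without combination 2 and 3 the median of the matrix list was -0.08.

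**Figure D5:**
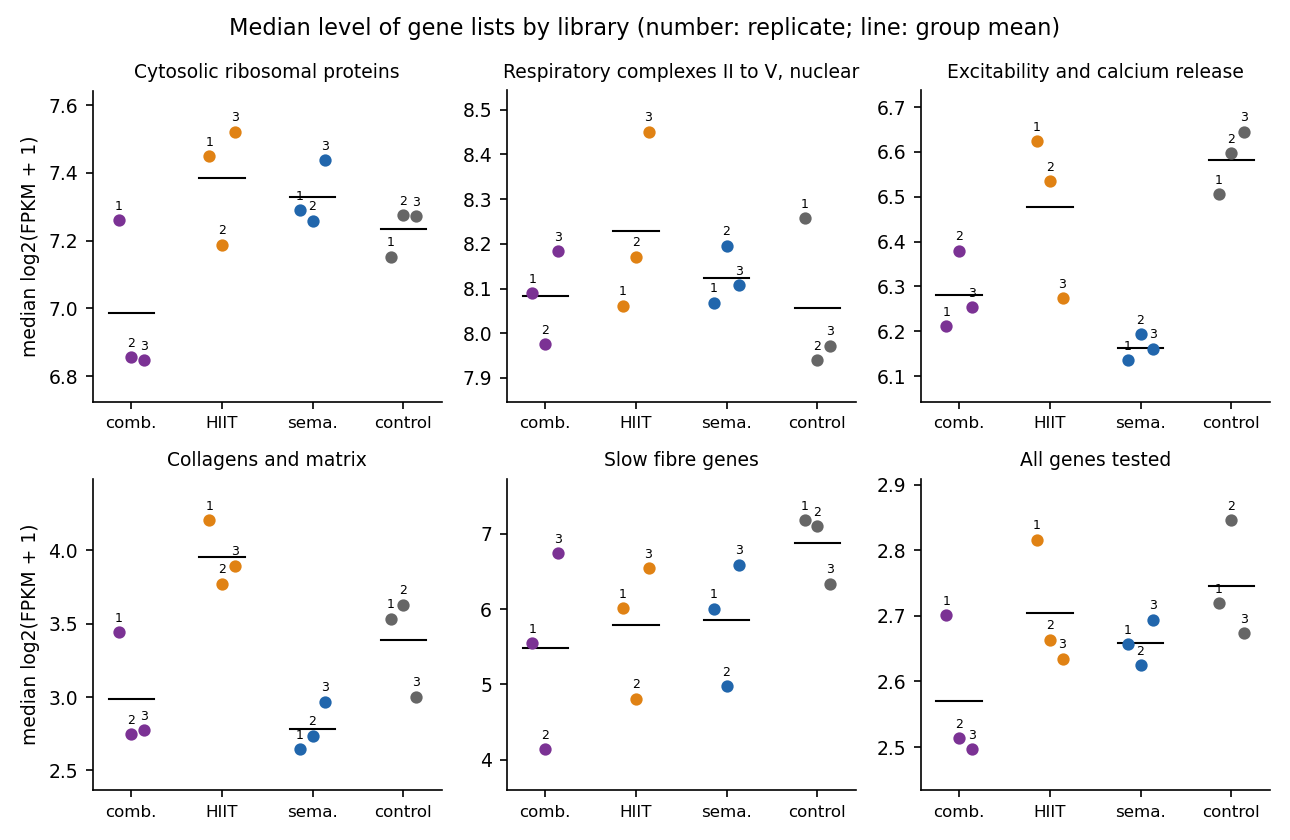
Median log2(FPKM + 1) of 5 gene lists and of all genes tested in each library (points, numbered by replicate), with the mean of each group (line). For ribosomal proteins, combination 2 and 3 lie at 6.86 and 6.85 below all other libraries, and they are also lowest over all genes.

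Markers of other cell types carried departures of their own. All 19 tested hepatocyte markers lay above 0, with a median interaction of 2.45, and 6 (31.6%) passed an unadjusted p of 0.05, where 2.64% of all genes did in that direction. Alb, serum albumin, had 2.6, 3.46 and 0.773 FPKM in the combination, 178, 27.6 and 3.80 FPKM with HIIT, 0.981, 2.66 and 3.57 FPKM with semaglutide and 399, 714 and 108 FPKM in controls. The controls were highest, and the combination and semaglutide were both near the bottom, so the drug difference was larger without training. The additive expectation of Alb was -0.703 FPKM, a level that cannot occur, and most of the 19 markers had one below 0. For these the floor of the scale fixed an interaction above 0. With the liver score as a covariate the median of the list was 0.11. That score is the mean of these same markers, so a median near 0 follows from its construction. Endothelial markers had a median of 0.18, with Ptprb and Cdh5 higher at an unadjusted p of 0.05 (13.3%, beside 2.64% of all genes). White adipocyte markers had -0.31 and macrophage markers -0.28, both with none at that level. The summed level of the 14 macrophage markers was 31.6 to 129.3 FPKM in the combination, 40.9 to 222.6 FPKM with HIIT, 27.9 to 43.5 FPKM with semaglutide and 44.9 to 148.7 FPKM in controls. Adipoq, the adipocyte hormone adiponectin, had an interaction of -1.07 ± 1.04. Lymphocyte markers summed to under 0.3 FPKM in every library.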

How the data were processed

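Muscle RNA of 12 libraries was analysed. The authors deposited 1 table of FPKM values for 22390 features. The submitters' processing notes name StringTie 2.1.4, featureCounts 2.0.1, STAR 2.7.9a, Trimmomatic 0.36, FastQC, CASAVA and the build GRCm39, without their roles. Which tool computed the FPKM is not given in the sources used here. Depth is unknown, so no counting interval is given, and read counts were not used here. Sums were 533412 to 586817 FPKM per library.

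The values entered one limma 3.58.1 model (R 4.3.3; trended, robust, 4 group means) as log2 of FPKM plus a pseudocount of 1, which understates changes of low genes. Features reaching FPKM 1 in 3 or more libraries were kept. The model gave the interaction and 4 differences, two-sided, with Benjamini-Hochberg adjustment over 10666 genes at 0.05; it was tested on simulated data. Values after ± are limma standard errors, and intervals are 95%.

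TMM (trimmed mean of M values) factors were computed from the FPKM. Transcript lengths came from GENCODE M21 (GRCm38; 99% of genes matched). Named genes are, in each direction, the 10 with the smallest p of the interaction where none is called, 28 chosen genes, up to 3 members per list and the 3 most abundant markers per cell type; others were named after their values were seen. Members and lists were chosen with earlier results of these data known. Alternatives were another pseudocount, filters, TMM, limma without trend, a square root scale, array weights, a replicate block, liver and adipocyte scores as covariates, removal of the length trend and left-out libraries. Correlations of deviations between libraries with equal replicate numbers were over 0.1 in all 3 combination and HIIT pairs, where the block is given as an alternative, and in 1 of the other 15 pairs. A result of 1 gene is not reported here.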

Additional observations from a re-analysis of the deposited data

How the results depend on the processing

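The interaction had 0 called genes in 23 of 25 alternatives, 1 with array weights and 0 to 24 when one library was left out; the 24 came without combination 1, with 22 lower and 2 higher, among them H2az1 (-0.71), Bcl2l12 (-1.02) and Ahdc1 (0.85). Combination against HIIT (321) gave 195 with no filter, 693 after TMM, 1717 with array weights, 31 with the liver score, 59 with the adipocyte score, 42 without the 3 libraries richest in liver transcripts, 0 without combination 2 and 3, 577 with the length trend removed, and 18 to 1574 with one library left out. Semaglutide against control (397) gave 182 at a mean FPKM of at least 5, 803 with array weights, 1 with the liver score, 145 without the liver-rich libraries, 109 without combination 2 and 3, and 33 to 552 with one library left out. Combination against semaglutide (1) gave 0 with a pseudocount of 0.1, no filter, a mean FPKM of at least 5, a square root scale, the adipocyte score and without the length trend. It gave 1267 with array weights, and 0 to 557 with one library left out. HIIT against control (0) gave 1 with the liver score and 0 to 1 with one library left out. The causes were not tested. The alternatives without combination 2 and 3 and without the length trend were chosen after seeing the data. The fits without combination 2 and 3 and without the 3 libraries richest in liver transcripts leave 1 library in a group. Their counts are not listed separately. With one library left out, the highest count of combination against HIIT came without combination 1, which had the lowest array weight, 0.352, and the lowest without combination 2.

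Libraries with equal replicate numbers correlated from -0.226 to 0.294 over 18 pairs, 4 of them over 0.1, and the own number gave the highest correlation in 2 of 12 libraries; over all groups the libraries were not treated as paired. All 3 pairs of combination and HIIT libraries were over 0.1 (0.224 to 0.294). These 3 values are not independent, because the deviations within a group sum to 0. The labels state no pairing for that comparison, and the correlations do not settle whether there was one. A replicate block gave 0 called genes for the interaction (873 at an unadjusted p of 0.05), 335 for combination against HIIT, 373 for semaglutide against control, 0 for combination against semaglutide and 0 for HIIT against control. For the 174 named genes, 4130 of 4310 alternative values kept their direction and call, 177 changed sign while called in neither fit, as in Trim63 and Slc2a4, and 3 became called. FPKM carry no depth, and 3 libraries per group limit the interaction to a median half-width of 0.42 for its 95% interval.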

Other observations

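Of the 24 features called for the interaction without combination 1, 3 are given here, chosen after their values were seen and not as a theme tested for enrichment. Ccnl2, a cyclin that binds splicing kinases, had 26.1, 7.17 and 8.11 FPKM in the combination, 32.3, 28.4 and 21.1 FPKM with HIIT, 31.3, 25.3 and 22.6 FPKM with semaglutide and 28.3, 26.1 and 28.2 FPKM in controls. Clk1, a kinase of splicing factors, had 29.5, 10.6 and 14 FPKM in the combination, 42.9, 29.9 and 32.5 FPKM with HIIT, 50.6, 33.7 and 35.9 FPKM with semaglutide and 36.7, 35.5 and 37.5 FPKM in controls. Ddx5, an RNA helicase, had 175, 81.3 and 72.8 FPKM in the combination, 175, 147 and 135 FPKM with HIIT, 204, 177 and 183 FPKM with semaglutide and 168, 175 and 164 FPKM in controls. In these 3 genes combination 2 and 3 lay below all other libraries. All 22 genes called lower without combination 1 had combination 1 above combination 2 and 3, an outcome that this choice favours. With all 12 libraries none of them was called, and why combination 1 differed was not tested.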
